A study of Mus musculus with 6 samples.

Results

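The genes described here encode the DREAM complex and its pocket proteins, measured in mouse C2C12 myotubes after miR-382-5p had been silenced. DREAM is an assembly of 3 parts. The MuvB core holds the products of Lin9, Lin37, Lin52, Lin54 and Rbbp4, the DNA-binding pair holds E2F4 or E2F5 with DP1 (Tfdp1), and a pocket protein, p107 (Rbl1) or p130 (Rbl2), joins them. Of the 10 listed genes, 9 had a row of their own, among 18820 genes with such a row in all. A row was a probe set that the platform annotation assigns to a single gene. Where a gene had several, the row was chosen by its mean level over all 6 arrays, the highest being kept. Rbbp4, which encodes a histone-binding subunit, is named there only on probe sets that also name Sync, so it is not analysed here.

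C2C12 cells are immortalized mouse myoblasts, which fuse into myotubes when serum is lowered. For the silenced arrays a locked nucleic acid (LNA) oligonucleotide that inhibits miR-382-5p was used, and for the control arrays a negative control oligonucleotide. All cells had been in differentiation medium with 2% horse serum, were transfected at 50 nM on day 6 with a lipid reagent, and were harvested 24 h later, on day 7. There were 3 silenced and 3 control arrays, numbered 1 to 3 in each group, all from this 1 cell line, and no label says whether the arrays of a group were separate cultures, so the p-values reflect no more than how these samples varied, and that variation may be technical.

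DREAM is known for holding cell cycle genes silent in cells that have left the cycle. Its E2F part reads E2F sites in promoters of G1/S genes, and LIN54 reads the cell cycle genes homology region (CHR) in promoters of G2/M genes. When cells re-enter the cycle the pocket protein and E2F part leave, and the MuvB core joins B-MYB (Mybl2) and then FOXM1 to drive mitotic genes. In muscle, p130 is known to accumulate as myoblasts leave the cycle, while p107 is itself a product of an E2F-regulated gene.

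The silenced microRNA is shown first because the labels separate the groups by its inhibition. It is encoded on the + strand at chr12:109733781-109733802 (GRCm38.p6, RefSeq), and its seed, bases 2 to 8, is in capitals.
mmu-miR-382-5p: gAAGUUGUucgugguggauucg

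Promoter sequences are shown because 6 of the genes hold a CHR or an E2F site, the letters that DREAM itself reads. RefSeq start sites of GRCm38.p6 were available for 7 of the 10 genes, Rbbp4 included, as windows of 250 bases before to 50 after a start. A CHR (TTTGAA or TTCGAA, either strand; the second reads the same on both) was present in windows of Lin37, Lin54 and Rbl2. An E2F site (TTTCCCGC, TTTCGCGC, TTTGCCGC or TTTGGCGC, either strand) was present in windows of Rbl1, Tfdp1 and Lin52. Rbbp4 held neither kind, and none of the 7 genes held both. Over all 32851 such windows, 19.2% held a CHR and 2.26% held an E2F site, and by gene the shares were 21.7% and 2.61%. A match says only that these letters are in the window. Lin54 held TTTGAA from base 41 of a start, and TTTGAA from base -162 and TTCGAA from base 30 of another, not printed below. In the stretches below, written in the direction of the gene, the matched letters are in capitals.
Lin37, chr7:30559825-30559854, - strand, CHR from base -197: agcctcggaagTTTGAAtcacaacccccac
Rbl2, chr8:91069845-91069874, + strand, CHR on the opposite strand from base -201: gtctttttctcTTCAAAcgagccttctgaa
Rbl1, chr2:157204534-157204563, - strand, E2F site from base -18: aagaaggcgatTTTCGCGCgctttgtcgcg
Lin52, chr12:84451470-84451499, + strand, E2F site from base -27: cggatcctcgcTTTCCCGCcgacggttggt
Tfdp1, chr8:13338697-13338726, + strand, E2F site on the opposite strand from base -43 of the first of its 2 starts: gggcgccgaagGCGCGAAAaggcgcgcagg

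Values below are log2 expression levels as the authors deposited them. Levels of different genes are not set against each other, because each probe set has its own response. A gene was tested if its mean level exceeded 3.87, the 40th percentile of these means. That left 11292 genes, and all 9 genes of the complex were among them. Differences are silenced minus control, from limma over all tested genes with Benjamini-Hochberg adjustment and a threshold of 0.05. The first principal component, with 46.8% of the variance, set both arrays numbered 1 apart from the other 4, and after removal of group means the same-numbered arrays correlated at 0.55, 0.35 and 0.42. All 20 myotube markers checked lay above the level used for testing. Myh3, an embryonic myosin heavy chain, read 11.47, 11.55 and 11.57 on silenced arrays, against 11.37, 11.22 and 11.24 on control arrays. Ckm, the muscle creatine kinase, read 8.97, 9.22 and 9.52 on silenced arrays, against 9.25, 8.99 and 9.37 on control arrays, and overlapped. Markers of adipocytes (4 of 7) and of bone and cartilage (4 of 8, with 1 more lacking a row) lay at or below the percentile used for testing. The other 3 adipocyte markers lay above it, with mean levels from 5.79 to 6.17 in silenced and 6.01 to 6.11 in control arrays. So did the other 3 of bone and cartilage, from 5.53 to 5.59 in silenced and 5.32 to 5.86 in control arrays.

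Lin37 stood apart between the groups, and the other 8 genes overlapped. None of the 9 passed the threshold over all genes, as for the whole table (0 of 11292 genes by limma, or 0%). At an unadjusted p under 0.05 there was 1 of the 9, Lin37, beside 542 of all tested genes (4.8%). In the fit blocked on replicate number it was again 1 of the 9, beside 1168 of all tested genes (10.3%), and 0 passed the adjusted threshold. A silenced range wholly above the control range was found for 1 of the 9 genes, against 6.94% of all tested genes, and one wholly below it for 0, against 4.87%. By mean, 4 of the 9 were higher and 5 lower in silenced arrays. Their median difference was -0.025 (-0.16 when silenced replicate 1 was left out, 0.093 when silenced replicate 3 was), while 52.7% of all tested genes were higher and their median difference was 0.0089. Fewer cells of a type and less RNA per cell cannot be told apart in such bulk samples.

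**Figure D1:**
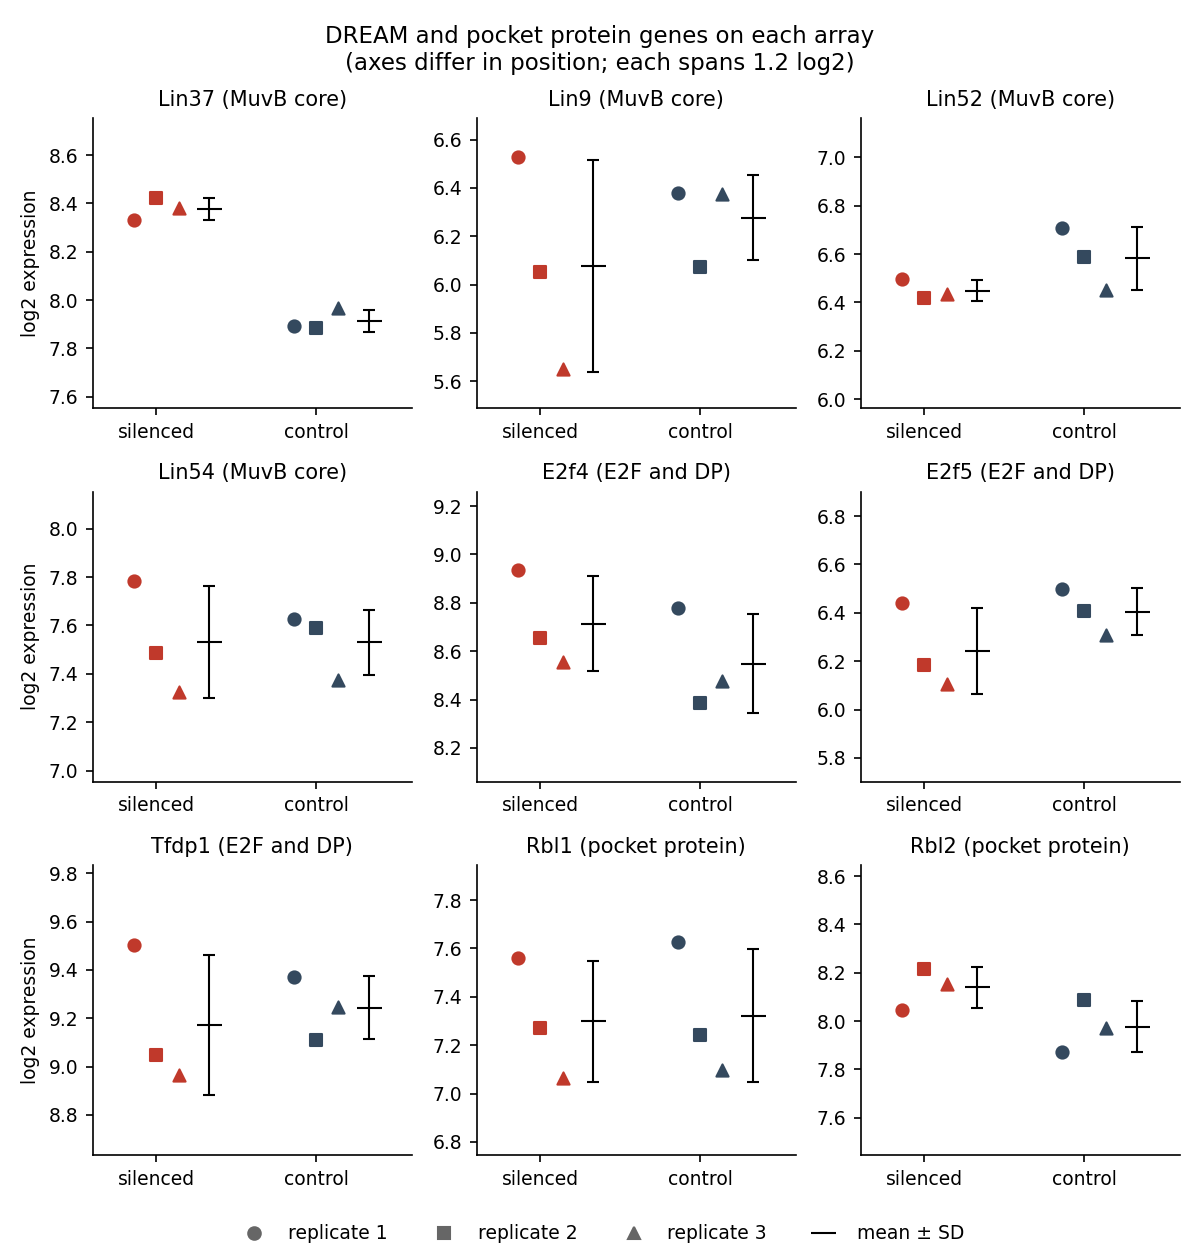
log2 expression of the 9 genes on each array, silenced left and control right; symbols mark the replicate number, and bars are mean ± SD (n = 3 per group). Axes differ in position and share 1 span. Lin37 is the 1 gene whose silenced arrays (8.33 to 8.42) all lie above its control arrays (7.88 to 7.97).

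In the MuvB core, Lin37, a subunit needed for the repressing form of the complex, read 8.33, 8.42 and 8.38 on silenced arrays 1 to 3, against 7.89, 7.88 and 7.97 on control arrays 1 to 3. The lowest silenced array lay 0.36 above the highest control array, a gap wider than the SD within either group. The means were 8.38 ± 0.05 in silenced and 7.91 ± 0.05 in control arrays (SD, n = 3 each). The difference was 0.46 ± 0.08 (SE; 95% interval 0.29 to 0.64), or 1.38-fold (1.22 to 1.56), with limma's adjusted p = 0.871. Its unadjusted limma p of 0.00039 was number 4 in order among 11292 genes, which did not survive the adjustment. With the replicate number as a block, limma's adjusted p was 0.464. An exact 2-sided permutation test gave p = 0.1, the smallest that 3 against 3 allows. Lin37 was higher in all 3 same-numbered pairs, by 0.44, 0.54 and 0.42.

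The Lin37 value rests on 1 probe set, and the annotation gives the gene a second, dimmer one that did not separate the groups. The second probe set read 5.04, 4.66 and 4.23 on silenced arrays, against 4.33, 4.27 and 4.54 on control arrays. Silenced replicate 3 was the lowest of all 6 arrays there, and the difference was 0.27 ± 0.20 (SE; 95% interval -0.20 to 0.73; adjusted p = 0.872 with limma over 12948 probe sets). The mean of both probe sets differed by 0.36. The 2 probe sets share a RefSeq transcript in the annotation but each also cites an accession of its own.

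In RefSeq, Lin37 overlaps Hspb6, which encodes a small heat shock protein abundant in muscle. Hspb6, looked at after the values of Lin37 were seen, was also higher. It read 8.98, 9.15 and 9.10 on silenced arrays, against 8.57, 8.90 and 8.83 on control arrays. The groups did not overlap, though silenced replicate 1 and control replicate 2 lay close. The difference was 0.31 ± 0.11 (SE; 95% interval 0.050 to 0.56; limma, adjusted p = 0.871). Positions and strands of the probes were not used here, so whether signal of 1 gene reached the other's probe set was not tested. Psenen, the next gene on one side, differed by -0.013 ± 0.091 (SE), and Proser3 on the other side by -0.33 ± 0.19 (SE).

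**Figure D2:**
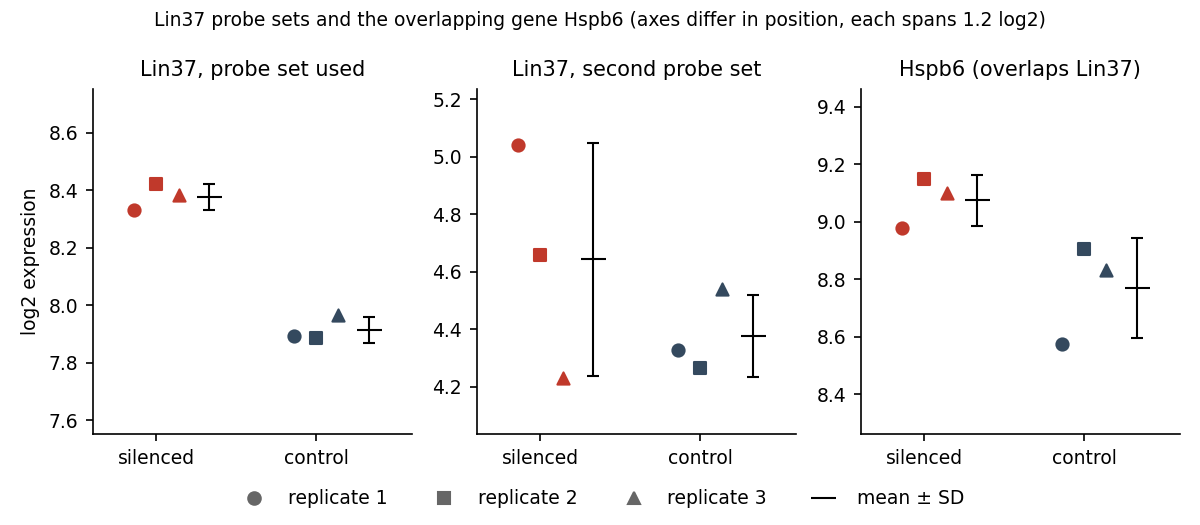
log2 expression on each array for the Lin37 probe set used, the second Lin37 probe set and the overlapping gene Hspb6, silenced left and control right; symbols mark the replicate number and bars are mean ± SD (n = 3 per group). The groups are apart in the first panel, by 0.36, overlap in the second and are apart in the third.

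Lin9, the MuvB scaffold subunit, had the widest spread of the 9 genes. It read 6.53, 6.05 and 5.65 on silenced arrays, against 6.38, 6.07 and 6.38 on control arrays. Silenced arrays were both the highest and the lowest of the 6. The difference was -0.20 ± 0.21 (SE; 95% interval -0.70 to 0.30; limma, adjusted p = 0.898), and without silenced replicate 3 it was 0.012.

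Lin52, the small subunit whose phosphorylation by DYRK1A brings in the pocket protein, read 6.50, 6.42 and 6.43 on silenced arrays, against 6.71, 6.59 and 6.45 on control arrays. It was lower in all 3 same-numbered pairs, but control replicate 3 lay between silenced arrays. The difference was -0.13 ± 0.09 (SE; 95% interval -0.35 to 0.080; limma, adjusted p = 0.871). A second probe set of Lin52 read 6.46, 6.49 and 6.37 on silenced arrays, against 6.59, 6.51 and 6.47 on control arrays, again with overlap, and differed by -0.083 ± 0.078 (SE).

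Lin54, the subunit that binds the CHR, read 7.78, 7.49 and 7.33 on silenced arrays, against 7.63, 7.59 and 7.37 on control arrays. The groups overlapped throughout, and the means were 7.53 ± 0.23 in silenced and 7.53 ± 0.14 in control arrays (SD, n = 3 each). The difference was 0.0017 (95% interval -0.31 to 0.32; limma, adjusted p = 0.999).

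Among the DNA-binding partners, E2f4, the main repressive E2F of DREAM, read 8.93, 8.65 and 8.55 on silenced arrays, against 8.78, 8.39 and 8.48 on control arrays. It was higher in all 3 same-numbered pairs, by 0.16, 0.27 and 0.077, while the groups overlapped because control replicate 1 exceeded silenced replicates 2 and 3. The difference was 0.17 ± 0.14 (SE; 95% interval -0.16 to 0.50; limma, adjusted p = 0.879).

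E2f5, its close relative, read 6.44, 6.18 and 6.10 on silenced arrays, against 6.50, 6.41 and 6.31 on control arrays. It was lower in all 3 same-numbered pairs, by -0.057, -0.23 and -0.20, and the groups overlapped through silenced replicate 1. The difference was -0.16 ± 0.11 (SE; 95% interval -0.42 to 0.098; limma, adjusted p = 0.871). The 2 E2F genes thus had means on opposite sides, and a difference between them was not tested.

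Tfdp1, which encodes DP1, the dimer partner that E2Fs need to bind DNA, read 9.50, 9.05 and 8.96 on silenced arrays, against 9.37, 9.11 and 9.25 on control arrays. Silenced arrays were again both highest and lowest. The difference was -0.071 ± 0.153 (SE; 95% interval -0.43 to 0.29; limma, adjusted p = 0.955), and a second probe set differed by -0.040 ± 0.10 (SE).

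The pocket proteins did not separate the groups either. Rbl1 (p107) read 7.56, 7.27 and 7.06 on silenced arrays, against 7.63, 7.24 and 7.10 on control arrays. Same-numbered arrays lay within 0.065 of each other, closer than arrays of 1 group. The difference was -0.025 ± 0.173 (SE; 95% interval -0.43 to 0.38; limma, adjusted p = 0.985). A second Rbl1 probe set lay below the level used for testing, at 2.88 ± 0.17 in silenced and 3.24 ± 0.35 in control arrays (SD, n = 3 each).

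Rbl2 (p130) read 8.05, 8.22 and 8.15 on silenced arrays, against 7.87, 8.09 and 7.97 on control arrays. Silenced replicate 1 lay below control replicate 2, and otherwise silenced arrays were higher, in each same-numbered pair by 0.17, 0.13 and 0.18. The difference was 0.16 ± 0.09 (SE; 95% interval -0.052 to 0.38; limma, adjusted p = 0.871, or 0.495 in the fit blocked on replicate number). In all, 3 of the 9 genes (Lin37, E2f4 and Rbl2) were higher in all 3 pairs, against 19.7% of all tested genes, and 2 (Lin52 and E2f5) were lower in all 3, against 15.8%.

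**Figure D3:**
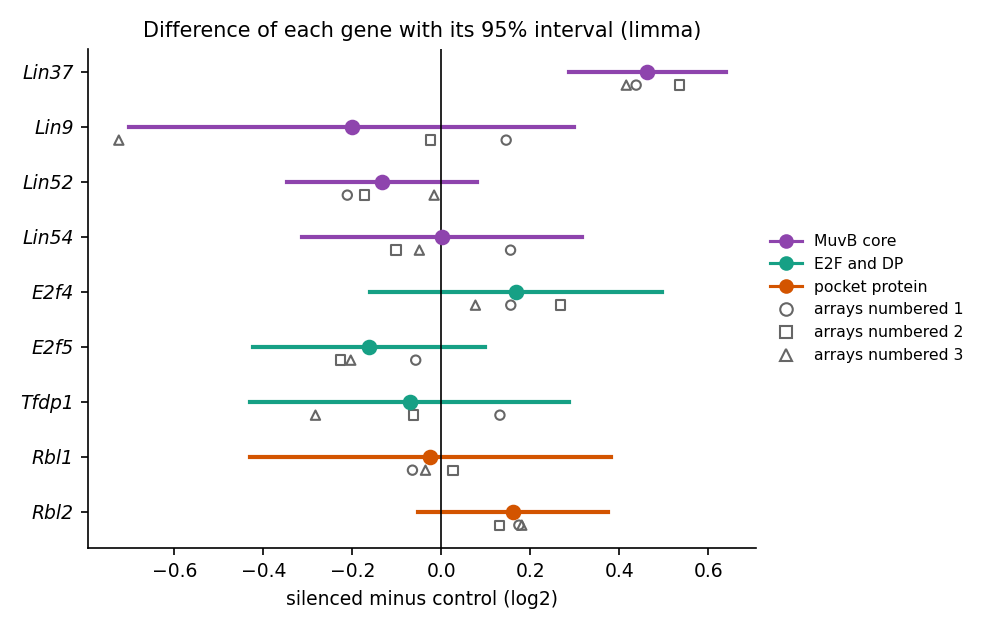
Silenced minus control difference of each gene (log2; filled points) with its 95% interval from limma, coloured by role; open symbols are the differences within same-numbered arrays. The interval of Lin37 (0.29 to 0.64) excludes 0 before adjustment, and the other 8 intervals include it.

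Most of these genes were highest on the arrays numbered 1, whichever the group. In 7 of the 9 (Lin9, Lin52, Lin54, E2f4, E2f5, Tfdp1 and Rbl1) the array numbered 1 was the highest of its group in both groups, against 22.6% of all tested genes. In Rbl2 it was the lowest in both, against 20.6% of all tested genes, and Lin37 did neither. Rbl1 on array 1 exceeded the mean of arrays 2 and 3 by 0.40 in silenced and 0.46 in control cells. E2f4 did so by 0.33 and 0.35, and Tfdp1 by 0.50 and 0.19, in the same order. Rbl2 on array 1 lay below that mean, by -0.14 in silenced and -0.16 in control cells. The 9 genes share the same 6 arrays and are not independent of each other.

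Genes that DREAM is known to repress followed the same arrays. Of 36 listed G1/S targets, the genes of DNA replication and nucleotide supply, 31 were tested. In 31 of the 31 the array numbered 1 was highest in both groups, against 22.6% of all tested genes. Their median excess over arrays 2 and 3 was 0.50 in silenced and 0.35 in control cells. Of 46 listed G2/M targets, the genes of mitosis, 42 were tested, and array 1 was highest in both groups in 35, beside the same 22.6%. Their median excess was 0.46 in silenced and 0.40 in control cells, while over all tested genes it was 0.020 and -0.0041. Array 3 held the lowest median of the G2/M targets in both groups, at -0.39 in silenced and -0.23 in control cells relative to each gene's mean over the 6 arrays. Outside the targets, array 1 was highest in both groups for 5 of 8 other E2F, DP and pocket protein genes and 6 of 16 DREAM assembly genes. It was so for 8 of 18 genes of complexes that share Rbbp4, 2 of 9 markers of undifferentiated cells and 0 of 20 myotube markers. Fibroblast and matrix markers were lowest on array 1 in both groups for 6 of 8 tested genes (Thy1 was not tested), against 20.6% of all tested genes. Mean levels of these markers ran from 8.89 to 9.30 in silenced and 8.95 to 9.34 in control arrays. By mean, 4 of the 8 were higher and 4 lower in silenced arrays, from -0.60 (Lum) to 0.12 (Col5a1). In 3 of the 8 the silenced array was lower in all 3 pairs, against 15.8% of all tested genes. At an unadjusted p under 0.05 there were 0 of the 8, against 4.8%. In the fit blocked on replicate number there were 2, both lower, against 10.3%. The part of these markers in the levels above was not tested, nor is it given by any label what the numbers stand for.

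**Figure D4:**
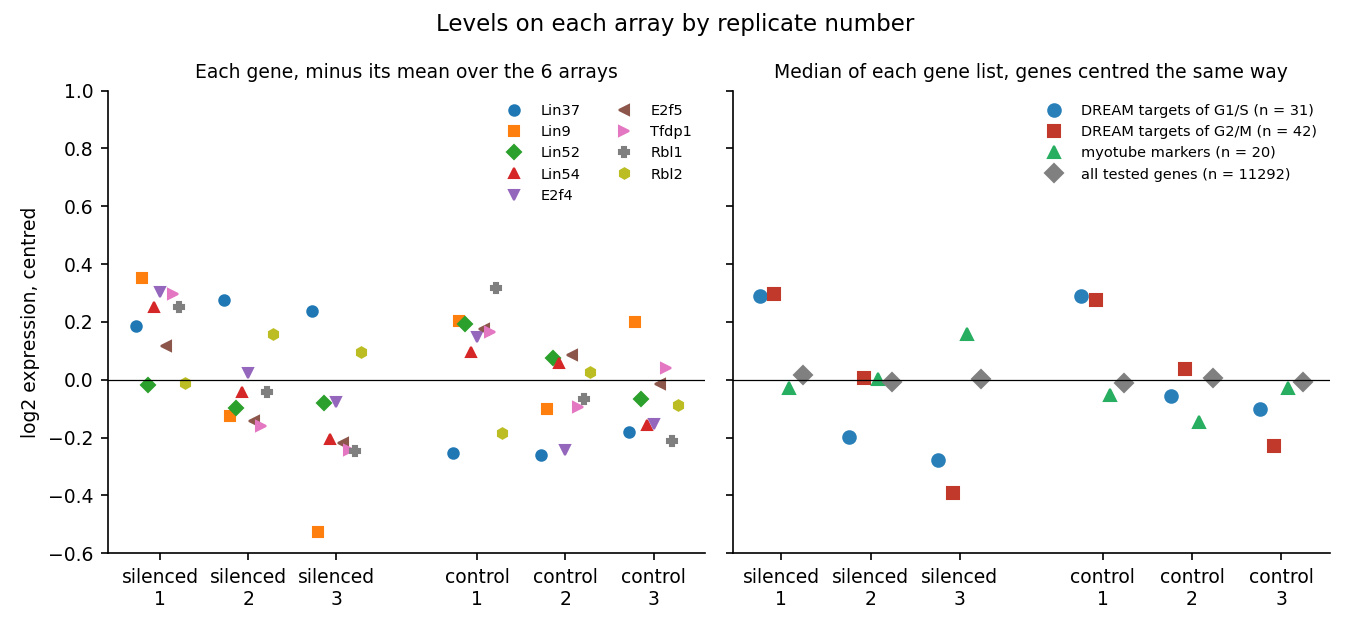
log2 expression relative to each gene's mean over the 6 arrays, for the 9 genes (left) and as medians of gene lists (right), by array; silenced arrays stand left of control arrays. Arrays numbered 1 are highest for most of the 9 genes and for both lists of DREAM targets (medians of 0.27 to 0.29), whereas all tested genes stay near 0.

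Between silenced and control arrays, the DREAM targets were not called. Among G1/S targets 10 were higher and 21 lower in silenced arrays, and the median difference was -0.098, beside 0.0089 over all tested genes, and 0 passed limma without the block at either the adjusted threshold or an unadjusted p under 0.05. In the fit blocked on replicate number 4 of the 31 had an unadjusted p under 0.05, all of them lower, and 0 passed the adjusted threshold. Over all tested genes 10.3% had such an unadjusted p in that fit (652 genes higher and 516 lower). In 11 of the 31 the silenced array was the lower one in all 3 pairs, against 15.8% of all tested genes. The median was -0.021, -0.053 and -0.19 within arrays numbered 1, 2 and 3. It was 0.050 without control replicate 1 and -0.24 without silenced replicate 1. Pola1, a DNA polymerase subunit, read 6.87, 6.48 and 6.26 on silenced arrays, against 6.95, 6.66 and 6.89 on control arrays (adjusted p = 0.871, limma). Mcm6, a subunit of the replicative helicase, read 8.09, 7.80 and 7.71 on silenced arrays, against 8.48, 7.98 and 8.02 on control arrays (adjusted p = 0.871, limma). Both were lower in all 3 same-numbered pairs, and in both the groups overlapped.

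Among G2/M targets 12 were higher and 30 lower, with a median of -0.041, and 0 passed limma at either threshold, with the block or without it. The median was 0.0032, -0.0052 and -0.11 within numbers 1, 2 and 3, and turned to 0.13 without silenced replicate 3. Ccnb2, a mitotic cyclin, read 10.07, 9.81 and 9.92 on silenced arrays, against 9.76, 9.74 and 9.80 on control arrays, apart by a narrow margin. It was the 1 gene of the 42 with silenced arrays wholly above control arrays, against 6.94% of all tested genes. Wholly below were 0 of the 42, against 4.87%. Ncapg, a condensin subunit, read 8.24, 7.85 and 7.47 on silenced arrays, against 8.23, 8.10 and 7.82 on control arrays, so that silenced arrays were both the highest and the lowest.

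Of 8 other E2F, DP and pocket protein genes, 7 had higher means in silenced arrays, against 52.7% of all tested genes. Their median difference was 0.083, and 0 passed the adjusted threshold. At an unadjusted p under 0.05 there was 1 of the 8, E2f2, with the block or without it. Over all tested genes the shares were 10.3% with the block and 4.8% without it. A silenced range wholly above the control range was found for 1 of the 8, also E2f2, against 6.94% of all tested genes. The median was -0.074 without silenced replicate 1. E2f2, an activating E2F, read 8.68, 8.42 and 8.74 on silenced arrays, against 8.38, 8.17 and 8.19 on control arrays. All 3 silenced arrays lay above the 3 control arrays, by a margin smaller than the spread within the silenced group, and the difference was 0.36 ± 0.11 (SE; 95% interval 0.10 to 0.63; limma, adjusted p = 0.871). E2f1 differed by 0.021 (95% interval -0.20 to 0.25). Rb1, the retinoblastoma pocket protein, read 9.45, 9.18 and 9.41 on silenced arrays, against 9.23, 9.26 and 9.21 on control arrays, and overlapped.

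The partners that take the place of the pocket protein in cycling cells were measured for 2 of 3 genes, since Foxm1 had no row of its own. Mybl2 (B-MYB) read 6.61, 6.07 and 6.09 on silenced arrays, against 6.70, 6.15 and 5.82 on control arrays, and differed by 0.033 (95% interval -0.53 to 0.60). Mybl1 differed by -0.15 (95% interval -0.57 to 0.27). In both genes array 1 was the highest of its group in both groups.

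Of 18 kinases, cyclins and CDK inhibitors that set DREAM assembly, 16 were tested, 9 higher and 7 lower, with a median of 0.033 and 0 past limma's adjusted threshold or at an unadjusted p under 0.05. Dyrk1a, the kinase that phosphorylates LIN52, differed by 0.071 (95% interval -0.16 to 0.30). Its relative Dyrk1b read 6.95, 7.03 and 6.88 on silenced arrays, against 6.76, 6.92 and 6.71 on control arrays. Cdkn1a (p21), a CDK inhibitor that keeps pocket proteins unphosphorylated, read 11.99, 11.91 and 12.07 on silenced arrays, against 11.81, 11.84 and 11.87 on control arrays. Its groups did not overlap and the difference was 0.15 ± 0.08 (SE; limma, adjusted p = 0.871). Cdkn1a was the 1 gene of the 16 with silenced arrays wholly above control arrays, against 6.94% of all tested genes. Wholly below were 0 of the 16, against 4.87%. Cdkn1b (p27) differed by -0.073 (95% interval -0.33 to 0.18) and Ccnd1 (cyclin D1) by -0.051 (-0.65 to 0.55).

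Rbbp4 also serves in the NuRD, SIN3, CAF-1 and PRC2 complexes, and 18 other genes of these complexes were listed and tested. Of these, 11 were higher and 7 lower, with a median of 0.025 and 0 past limma's adjusted threshold or at an unadjusted p under 0.05. In the fit blocked on replicate number 2 of the 18, Gatad2a and Gatad2b, had an unadjusted p under 0.05, against 10.3% of all tested genes. The NuRD subunit genes Gatad2a and Gatad2b had the smallest p. Gatad2a read 9.18, 8.72 and 8.88 on silenced arrays, against 8.72, 8.67 and 8.60 on control arrays, touching without overlap. It was the 1 gene of the 18 with silenced arrays wholly above control arrays, against 6.94% of all tested genes. Another 1 of the 18 lay wholly below, against 4.87%. Gatad2b differed by 0.23 ± 0.12 (SE; limma, adjusted p = 0.871). Rbbp7, the close paralog of Rbbp4, differed by 0.024 (95% interval -0.28 to 0.33).

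Markers of the myotube state had higher means in silenced arrays. Of 20 myotube markers, 17 were higher in silenced arrays, with a median of 0.17 and 0 past the adjusted threshold. At an unadjusted p under 0.05 there were 6 of the 20, all higher, against 4.8% of all tested genes (319 higher and 223 lower). In the fit blocked on replicate number there were 7 of the 20, all higher, against 10.3% of all tested genes (652 higher and 516 lower). The silenced arrays lay wholly above the control arrays in 7 of the 20, against 6.94% of all tested genes, and wholly below in 1, against 4.87%. Their mean level ranged from 10.54 to 10.76 in silenced and 10.43 to 10.52 in control arrays. Markers of undifferentiated and reserve cells were higher in 5 of 9, with mean levels from 7.47 to 7.64 in silenced and 7.48 to 7.63 in control arrays (Pax3 was not tested). At an unadjusted p under 0.05 there was 1 of the 9, against 4.8% of all tested genes. In the fit blocked on replicate number there were 4 of the 9, 3 higher and 1 lower, against 10.3%. Pax7, the satellite cell factor, differed by 0.22 (95% interval 0.0049 to 0.43; limma, adjusted p = 0.871) and Myf5, a factor of committed myoblasts, by -0.21 (-0.48 to 0.065). Their part in the values of Lin37 and the other genes was not tested.

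**Figure D5:**
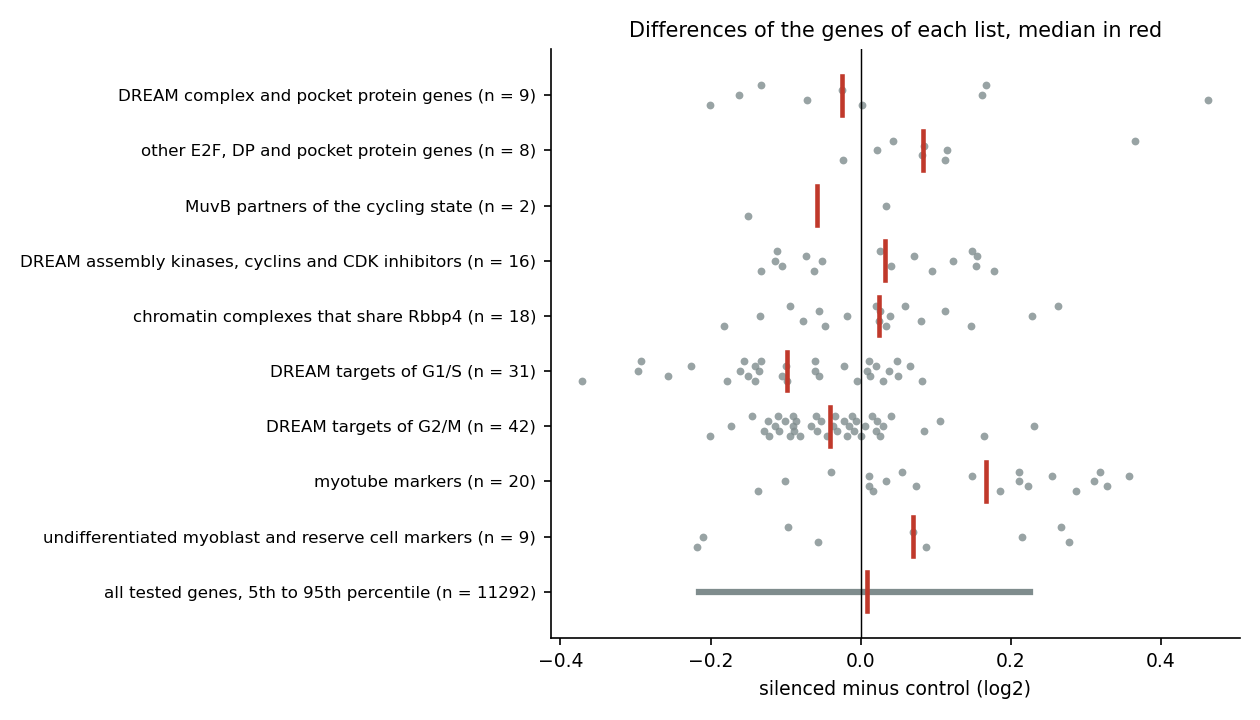
Silenced minus control difference (log2) of each tested gene in each list (grey points) with the list's median (red bar); the lowest line spans the 5th to 95th percentile of all tested genes (-0.22 to 0.23). Lin37 (0.46) lies furthest right among the 9 genes, and the medians of the lists lie between -0.098 and 0.17.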

How the data were processed

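The authors deposited log2 expression values for 35556 probe sets, made with RMA per the submitters' processing notes; no software version is named there. RMA subtracts background by a model, brings the arrays to 1 distribution and summarizes probes, and it compresses differences of dim genes toward 0. Values were used as deposited. The platform annotation gives 21218 probe sets a single gene and 1881 several, and 18790 of the 18820 genes matched RefSeq (GRCm38.p6) by Entrez identifier. For the array's own build the sources used here name none, so RefSeq positions are used only for the printed sequences and to name neighbouring or overlapping genes. No columns of other samples were present (0). The number of arrays limits the precision.

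The main test was limma 3.58.1 under R 4.3.3 (2-sided, no covariate; lmFit, then eBayes), tested on simulated data first. Every replicate number's correlation of deviations was over 0.1, which no label explains, and counts from a fit blocked on that number stand beside the results they alter; printed differences, errors and intervals come from the fit without it. Alternatives were the number as a block, no filter or the 60th percentile, repeated quantile normalization, centring, the mean of a gene's probe sets, each array left out, and both arrays numbered 1 left out. Testing each probe set as its own row was added after the data were seen.

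The genes and lists were chosen with earlier results of these data known, so no list is tested as such. Named outside the 9 genes are the 2 genes of smallest p in each pathway list and a fixed panel (Rb1, E2f1, Mybl2, Foxm1, Dyrk1a, Ccnd1, Cdkn1a, Cdkn1b, Rbbp7, Myh3, Ckm, Pax7 and Myf5). Hspb6 and other neighbours were named after their values were seen.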

Additional observations from a re-analysis of the deposited data

How the results depend on the processing

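None of the 9 genes, and none of all tested genes, passed limma's adjusted threshold under any alternative run (0 in each). For Lin37 the difference lay between 0.44 and 0.49 when single arrays were left out and was 0.36 with the mean of both probe sets, and its adjusted p ranged from 0.41 to 1.00. In the fit with a replicate block, 1168 of all tested genes had an unadjusted p under 0.05, against 542 without it, and 0 passed the adjusted threshold in either fit. That count was 834 with no filter on dim genes, 1160 without both arrays numbered 1 and 272 to 828 when single arrays were left out (272 without control replicate 3, 828 without control replicate 1). The cause was not tested. Differences of 4 genes changed sign when single arrays were left out: Lin9, the lowest of the 9 at -0.20, ranged from -0.43 to 0.012, Lin54 from -0.12 to 0.10 (and -0.075 without both arrays numbered 1), Rbl1 from -0.16 to 0.13 and Tfdp1 from -0.24 to 0.033. The median of the DREAM assembly list was -0.030 without both arrays numbered 1. Of the other alternatives, 124 values of counts and list medians and 127 of single genes kept their direction and side of the threshold or moved by less than the spread between replicates. For list medians that spread (0.053 to 0.32) exceeded each median itself, so medians that changed sign were counted there. When single arrays were left out, the median ran from -0.16 to 0.093 for the 9 genes. It ran from -0.24 to 0.050 for G1/S targets and from -0.18 to 0.13 for G2/M targets. Medians of the other pathway lists also changed sign in this way. Lin9 was not tested at the 60th percentile. RMA levels near the floor limit dim genes, here the second probe set of Rbl1.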

Other observations

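The protein-coding genes next to or overlapping the 9 genes in RefSeq were looked at after the values of Lin37 were seen. Of 21 such neighbours, 15 were tested, 0 passed limma's adjusted threshold and 4 had an unadjusted p under 0.05, beside 4.8% of all tested genes. Besides Hspb6 these were Cops4, beside Lin54, with a difference of -0.20 ± 0.08 (SE), and both genes that flank E2f5. Lrrcc1, which encodes a centrosomal protein, read 7.65, 7.70 and 7.53 on silenced arrays, against 7.71, 7.92 and 8.01 on control arrays. Car13, a carbonic anhydrase, read 10.01, 10.06 and 10.18 on silenced arrays, against 10.18, 10.33 and 10.44 on control arrays. Rbis, which overlaps E2f5 in RefSeq, differed by -0.11 ± 0.21 (SE), and Aktip, which overlaps Rbl2, was not tested. In 5 of the 15 tested neighbours, Hspb6 among them, the groups did not overlap, in either direction. Over all tested genes 6.94% were wholly higher and 4.87% wholly lower on silenced arrays.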
